A study of Mus musculus with 60 samples.

Results

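The genes described here are 36 genes of the blood vessel wall and of the signals that act on it, chosen by name from a list of vascular genes and found by their Ensembl identifiers among the 46480 genes counted by RNA-Seq. They fall into 22 endothelial genes, 7 angiogenic ligands and 7 mural genes, the last expressed by pericytes and smooth muscle. The samples were dorsal and ventral dentate gyrus (DG) tissue of male C57BL6J mice, weaned on day 22 into standard housing (SH) or an enriched environment (EE) and used at 80 days of age. Region and housing gave 4 groups, no group carried an introduced allele or received a drug, and each sample was pooled tissue of several mice. Dorsal DG was cut from coronal and ventral DG from horizontal slices, so that region and slice plane cannot be told apart. SH replicate 3 was left out in both regions because its libraries held the female transcript *Xist* (34.4 CPM dorsal and 11.9 CPM ventral), which leaves 4 SH pools and 5 EE pools, or 18 samples.

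Brain capillaries are tubes of endothelial cells sealed by tight junctions, which with selective transporters form the blood-brain barrier. Pericytes wrap the capillaries and smooth muscle cells wrap the arterioles, and both are recruited by PDGF-B released from endothelium. VEGF ligands act on the endothelial receptors Kdr, Flt1 and Flt4, and angiopoietins act on Tek together with its partner Tie1. Because whole tissue was sequenced, fewer cells of a type and less RNA per cell cannot be told apart in any value below.

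Libraries held between 22919364 and 28301861 fragments counted on genes, and each of the 36 genes passed the limit of more than 10 counts in at least 2 samples, along with 17040 genes in all. Markers of dentate granule neurons were present in each group, with a summed level of 3262 to 4862 CPM over 10 genes (CPM are counts scaled by TMM normalisation for depth and composition of the library). Choroid plexus markers, which belong to a neighbouring structure of the ventricle, summed to 28.1 to 221 CPM in dorsal and 407 to 1494 CPM in ventral samples, and all 12 of them were lower in dorsal DG. Astrocyte markers were lower in dorsal DG for 7 of 10 genes and granule neuron markers higher for 8 of 10, where 58.4% of all tested genes were called in either direction. Their part in the regional differences below was not tested.

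The upstream sequence of a gene is where much of its regulation is read. RefSeq start sites of mouse build GRCm38.p6 gave 29 windows of 250 bases for 23 of the 36 genes. Shown 5′ to 3′ are the windows of 3 genes called higher in EE over the 18 samples (Slc2a1, Mfsd2a and Eng). These 3 calls were lost when the dorsal and ventral counts of each pool were summed, as given below. Also shown are those of a dorsal-high and a ventral-high gene (Ocln and Vegfb). Capitals mark the core of the hypoxia response element, ACGTG, in the first pair, the ETS factor core AGGAAG in Eng, and the GC box GGGCGG in the last pair, each on either strand.
Slc2a1 (chr4:119108495-119108740, plus strand): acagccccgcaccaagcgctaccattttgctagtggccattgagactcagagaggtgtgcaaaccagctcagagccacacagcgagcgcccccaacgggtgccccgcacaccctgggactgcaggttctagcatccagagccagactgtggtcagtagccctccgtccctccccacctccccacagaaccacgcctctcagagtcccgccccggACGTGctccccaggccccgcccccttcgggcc
Mfsd2a (chr4:122961189-122961438, minus strand): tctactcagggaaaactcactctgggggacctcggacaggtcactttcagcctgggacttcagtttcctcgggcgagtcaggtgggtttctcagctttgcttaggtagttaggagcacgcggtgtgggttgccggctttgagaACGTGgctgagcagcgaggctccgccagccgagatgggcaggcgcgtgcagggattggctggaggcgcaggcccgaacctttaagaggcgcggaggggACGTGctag
Eng (chr2:32646345-32646594, plus strand): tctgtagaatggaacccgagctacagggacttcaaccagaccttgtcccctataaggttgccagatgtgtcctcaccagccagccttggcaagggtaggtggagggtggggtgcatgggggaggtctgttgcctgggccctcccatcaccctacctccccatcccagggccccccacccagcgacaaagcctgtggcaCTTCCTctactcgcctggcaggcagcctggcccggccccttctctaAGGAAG
Ocln (chr13:100552719-100552968, minus strand): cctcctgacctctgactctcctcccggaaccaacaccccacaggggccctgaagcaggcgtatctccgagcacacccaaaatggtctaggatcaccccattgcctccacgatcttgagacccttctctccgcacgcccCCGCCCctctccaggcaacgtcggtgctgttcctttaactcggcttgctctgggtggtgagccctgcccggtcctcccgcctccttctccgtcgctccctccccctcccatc
Vegfb (chr19:6987652-6987901, minus strand): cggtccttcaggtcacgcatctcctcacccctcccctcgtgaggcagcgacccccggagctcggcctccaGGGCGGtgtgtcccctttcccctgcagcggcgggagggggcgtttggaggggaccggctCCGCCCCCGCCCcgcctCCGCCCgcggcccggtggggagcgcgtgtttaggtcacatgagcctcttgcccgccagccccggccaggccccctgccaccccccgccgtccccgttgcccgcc
The Slc2a1 window is cut at 246 bases, since the Gencode gene begins before the RefSeq start and the last 30 bases shown lie within it, and the other 4 windows are whole.

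ACGTG was present in windows of 3 genes, Slc2a1, Mfsd2a and Vegfa. It lay 36 bases before the RefSeq start of Slc2a1 and 107 and 9 bases before that of Mfsd2a. In Slc2a1 the Gencode gene begins within this match, so by that annotation it is not wholly upstream. Over all 32851 promoter windows 16.6% held it, against 3 of the 29 windows here. The GC box occurred in 15 of 29 windows (32.7% of all windows), with 4 matches in Vegfb. AGGAAG occurred in 8 of 29 windows (29.5% of all), among them Eng with matches 52 and 6 bases before its start, Flt1, Tie1, Emcn and Erg. The related CGGAAG was in 1 window, that of Tie1 (13.6% of all), and the SOX core ACAAT in 5 (27.7% of all). The AP-1 site TGANTCA (6.75% of all), the E-box CACGTG, which contains ACGTG (6.02% of all), and the CArG box of smooth muscle genes (1.47% of all) were in none of the 29 windows. Both strands were searched, and a match describes letters, not a bound site.

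Levels between genes were compared in TPM, which corrects for transcript length. Over the 18 samples the highest means were those of Rgs5, a regulator of G protein signalling in pericytes, at 15.6 TPM, and Cldn5, the main claudin of the blood-brain barrier, at 15.5 TPM. Their ranges overlapped widely, 12.0 to 19.1 TPM and 10.5 to 20.3 TPM. Ly6c1, a surface protein of brain endothelium, followed at 14.6 TPM, and Vegfb, a VEGF family ligand that binds Flt1, at 11.5 TPM. The barrier transporters Slco1a4, for organic anions, and Slc2a1, for glucose, both had a mean of 10.7 TPM. The lowest means were those of the peptidase Anpep (0.134 TPM), of Angpt2, the angiopoietin that destabilises vessels (0.175 TPM), and of Flt4, the receptor for Vegfc (0.226 TPM). Medians by role were 2.13 TPM for endothelial, 1.79 TPM for mural and 1.503 TPM for ligand genes.

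**Figure D1:**
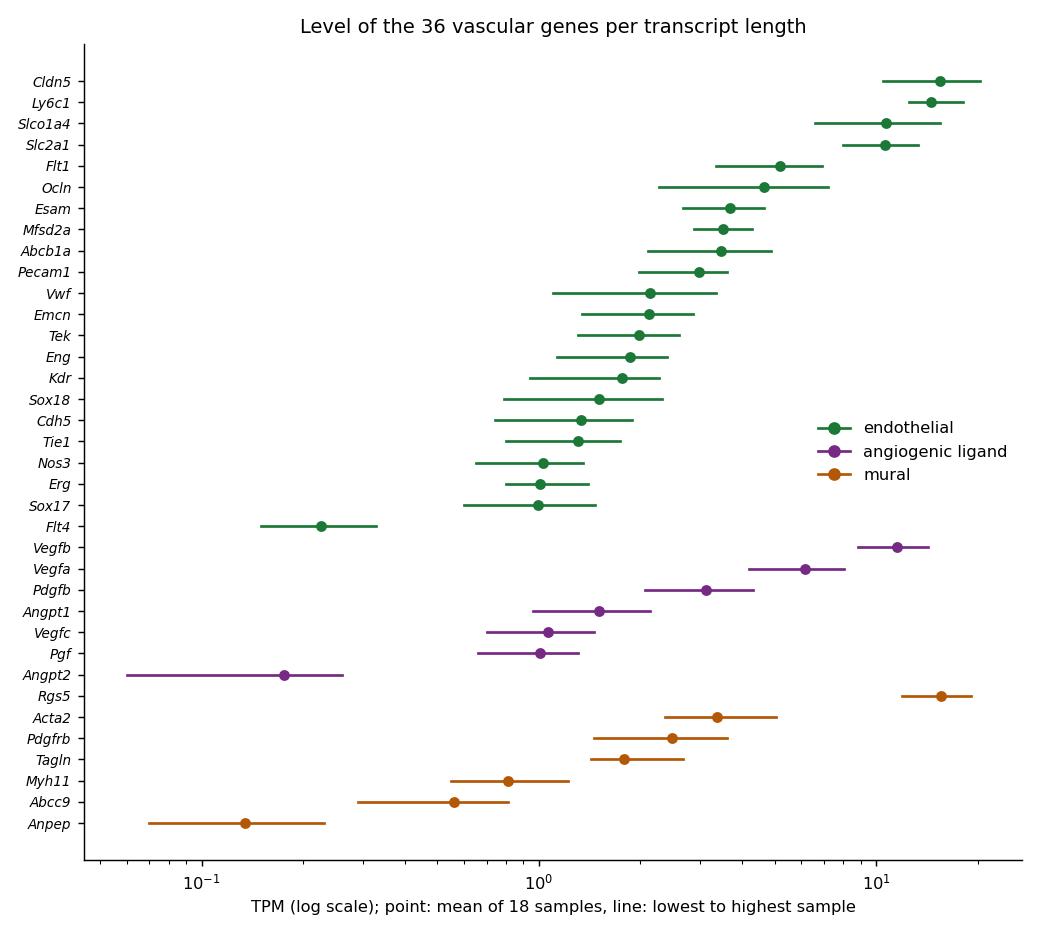
Level of each of the 36 genes in TPM on a log scale, with a point for the mean of 18 samples and a line from the lowest to the highest sample, coloured by role. Rgs5 and Cldn5 had the highest means (15.6 and 15.5 TPM) and Anpep the lowest (0.134 TPM), and neighbouring genes overlap in range.

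Differences between dorsal and ventral DG were found for 15 of the 36 genes, taking SH and EE together (edgeR's quasi-likelihood test, adjusted p under 0.05). This is 41.7% of the genes, below the 58.4% called among all 17040 tested genes. Of the endothelial genes 5 were higher and 1 was lower in dorsal DG, of the ligands 1 was higher and 4 were lower, and of the mural genes 1 was higher and 3 were lower. The median log2 fold change (dorsal minus ventral) was -0.0043 for endothelial, -0.11 for ligand and -0.10 for mural genes, against -0.0046 over all tested genes. The differences were small: with a fold change of at least 1.2 required as well, 6 of the 36 genes remained called, against 32.7% of all genes.

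Among endothelial genes, Ocln differed most between regions. It codes for occludin, a membrane protein of tight junctions, and lies on chromosome 13. Ocln was at 35.96, 32.4, 34.5 and 35.6 CPM in dorsal SH and at 33.9, 37.6, 31.9, 35.7 and 34.7 CPM in dorsal EE. Ventral SH samples had 26.5, 26.1, 25.4 and 28.6 CPM and ventral EE samples 25.5, 24.9, 25.9, 28.3 and 26.3 CPM. Each dorsal sample was above each ventral one, and the log2 fold change was 0.39 ± 0.04 (SE, adjusted p = 1.06e-08). Over all tested genes, the 9 dorsal and 9 ventral samples did not overlap for 18.9%.

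Vwf, the von Willebrand factor that endothelium stores and releases for clotting, was in SH at 26.03, 21.3, 21.5 and 24.5 CPM in dorsal samples and at 15.6, 17.5, 15.8 and 21.9 CPM in ventral ones. In EE it was at 29.7, 41.97, 32.97, 30.1 and 28.3 CPM in dorsal and 22.9, 26.7, 33.7, 28.9 and 23.2 CPM in ventral samples. The dorsal sample was the higher in 8 of 9 pools, and the log2 fold change was 0.33 ± 0.09 (SE, adjusted p = 0.00227). Smaller dorsal excesses passed the test for Cdh5, the cadherin of endothelial junctions (0.16 ± 0.06, adjusted p = 0.0164), Abcb1a, a drug efflux pump (0.14 ± 0.04, adjusted p = 0.00746), and Sox18, an endothelial transcription factor (0.18 ± 0.07, adjusted p = 0.0447). Sox18 lost its call in 7 of 9 fits on fewer pools, that is without SH replicates 1, 2, 4 or 5 or EE replicates 1, 2 or 5 (adjusted p up to 0.119). Cdh5 lost it without SH replicate 4 (adjusted p = 0.0507) or EE replicate 2 (adjusted p = 0.0638).

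Mfsd2a, the lipid transporter that brain endothelium needs for a tight barrier, was the endothelial gene with the opposite direction, and it was lower in the dorsal sample of 9 of 9 pools. In SH it was at 13.4, 14.4, 13.3 and 13.3 CPM in dorsal and at 14.97, 17.3, 13.3 and 14.3 CPM in ventral samples. In EE it was at 14.6, 17.1, 16.3, 15.3 and 15.4 CPM in dorsal and 17.5, 20.5, 18.5, 18.6 and 16.4 CPM in ventral samples. The ranges of the regions overlapped in both housings, and the log2 fold change was -0.18 ± 0.05 (SE, adjusted p = 0.00595). The junction and receptor genes Pecam1 (0.01 ± 0.05) and Kdr (-0.04 ± 0.06) had log2 fold changes within 1 SE of 0 and did not pass the test. Flt1 (0.09 ± 0.04, adjusted p = 0.0615) and Cldn5 (-0.13 ± 0.06, adjusted p = 0.0745) did not pass either, but did so with the pool as a block (adjusted p = 0.0191 and 0.00957).

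**Figure D2:**
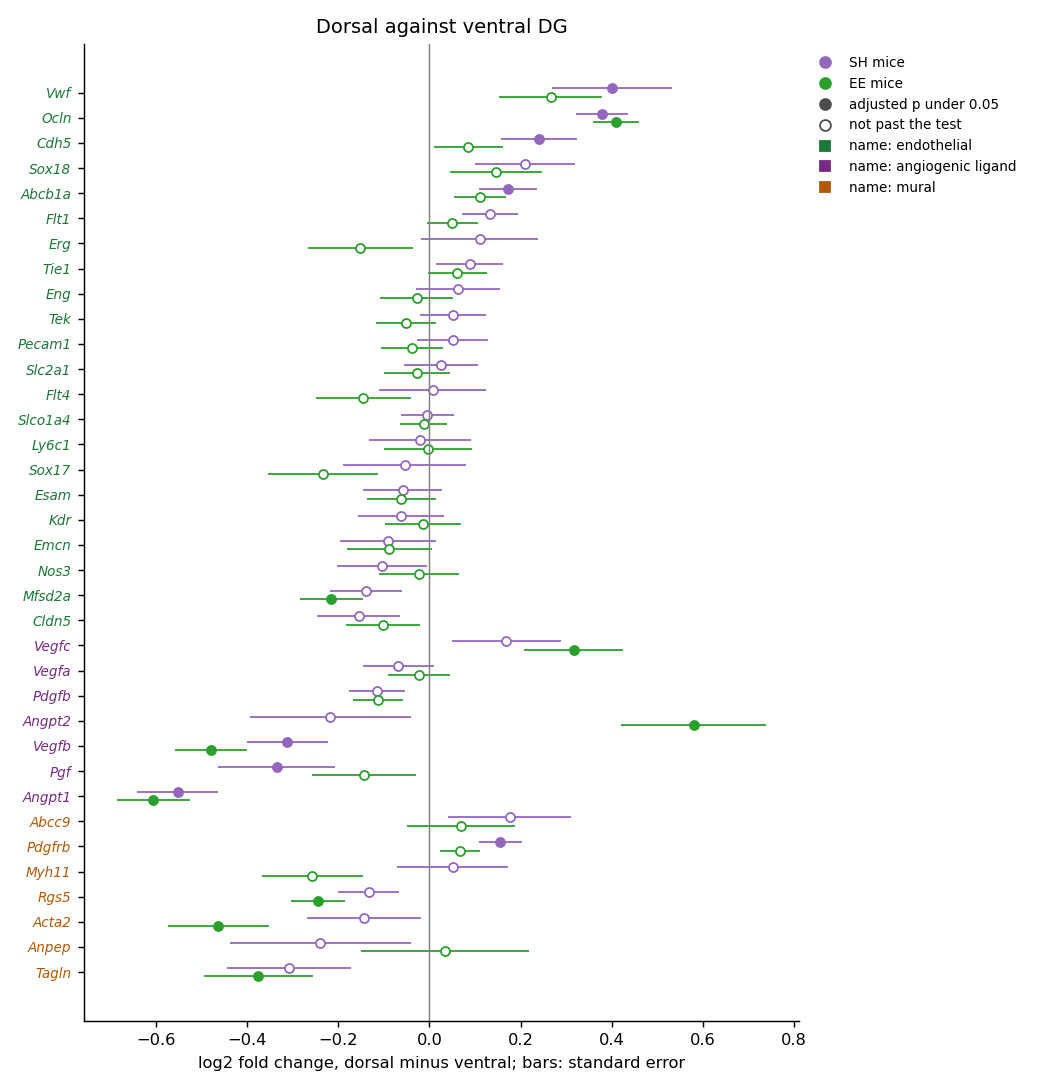
Log2 fold change between dorsal and ventral DG (dorsal minus ventral) of the 36 genes within SH and within EE, with standard errors as bars; filled points passed adjusted p under 0.05 and names are coloured by role. Ocln, Angpt1 and Vegfb passed in both housings, while Angpt2 passed in EE (0.58) and had a negative value in SH (-0.22, without SH replicate 3).

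The ligands held the widest regional difference. Angpt1, which activates Tek and stabilises vessels, was at 11.6, 12.8, 12.0 and 12.6 CPM in dorsal SH and 12.7, 10.9, 11.6, 10.6 and 9.86 CPM in dorsal EE. It was at 18.5, 18.97, 16.98 and 17.2 CPM in ventral SH and 17.6, 20.7, 16.03, 14.7 and 15.9 CPM in ventral EE. No dorsal sample reached the ventral range, and the log2 fold change was -0.58 ± 0.06 (SE, adjusted p = 2.98e-08). Vegfb was at 26.4, 27.4, 24.1 and 23.2 CPM in dorsal SH and 27.5, 25.6, 23.4, 23.7 and 22.5 CPM in dorsal EE. Ventral values of Vegfb were 33.6, 33.96, 29.5 and 28.3 CPM in SH and 36.7, 39.6, 34.2, 28.3 and 32.4 CPM in EE. Here too the regions did not overlap, with a log2 fold change of -0.40 ± 0.06 (SE, adjusted p = 6.16e-06).

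Pgf, a further ligand of Flt1, was lower in dorsal DG (-0.24 ± 0.09, adjusted p = 0.0209), as was Pdgfb, the recruiter of pericytes (-0.11 ± 0.04, adjusted p = 0.0216). Vegfc, known for its action on lymphatic endothelium, was higher (0.24 ± 0.08, adjusted p = 0.0132). These 3 calls were less stable than those of Angpt1 and Vegfb. Pgf was lost without SH replicate 1, SH replicate 2 or EE replicate 1 (adjusted p up to 0.0896), Pdgfb without SH replicates 2, 4 or 5 or EE replicate 5 (up to 0.0704) and Vegfc without SH replicate 2 (0.0779). Vegfa, the principal ligand of Kdr, had a log2 fold change of -0.05 ± 0.05 and did not pass the test.

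Mural genes differed among themselves. Rgs5 was lower in the dorsal sample of 9 of 9 pools, at 123, 129, 114 and 121 CPM in dorsal SH against 126, 149, 127 and 131 CPM in ventral SH. In EE it was at 131, 130.3, 138, 131 and 126 CPM in dorsal and 164, 165, 168, 134 and 146 CPM in ventral samples. The dorsal and ventral ranges overlapped in each housing, and the log2 fold change was -0.19 ± 0.04 (SE, adjusted p = 0.00103). Acta2, the actin of smooth muscle, was lower in dorsal DG by a log2 fold change of -0.30 ± 0.08 (adjusted p = 0.00346), and Tagln, an actin-binding protein of the same cells, by -0.34 ± 0.09 (adjusted p = 0.00265). Both were lower in the dorsal sample of 8 of 9 pools. Pdgfrb, the receptor through which pericytes respond to PDGF-B, was higher in the dorsal sample of 9 of 9 pools by 0.11 ± 0.03 (SE, adjusted p = 0.00508). Myh11, Anpep and Abcc9 did not pass the test.

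Within SH alone 8 of the 36 genes were called, against 41.7% of all tested genes, and within EE alone 9, against 46.5%. Leaving out any of the 4 SH pools left 5 calls within SH (replicates 1, 2, 4 and 5 in turn), and leaving out EE replicate 4 left 6 within EE. The genes that passed in each housing separately, in different mice, were Ocln (0.38 ± 0.06 in SH and 0.41 ± 0.05 in EE), Angpt1 (-0.55 ± 0.09 and -0.61 ± 0.08) and Vegfb (-0.31 ± 0.09 and -0.48 ± 0.08). With the pool as a block 12 genes were called in each housing, with Cldn5, Flt1, Rgs5 and Tagln added in SH (adjusted p = 0.0411, 0.0305, 0.0376 and 0.0208) and Vwf, Abcb1a and Myh11 added in EE (0.0109, 0.0365 and 0.0173). The block raised the calls over all 17040 tested genes as well, from 7103 to 8022 in SH and from 7924 to 8736 in EE.

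Housing changed fewer of these genes. Taking both regions together, 4 of 36 genes (11.1%) were called, against 1.8% of all tested genes, 1.02% as higher. All 4 were endothelial genes higher in EE, namely Vwf, Slc2a1, Mfsd2a and Eng. The 36 genes were chosen with earlier results of these data known, so the difference between these shares was not tested. None of the 7 ligands and none of the 7 mural genes passed, and 1 of each had an unadjusted p under 0.05, Vegfa and Rgs5. DESeq2, the replicate block and the fit with no filter on low counts each called 7, adding Ly6c1, Rgs5 and Vegfa. Over all genes these fits also called more, 466, 544 and 381 (the last of 29898 tested), against 306 in the main fit. Samples of the same pool come from the same mice and are not independent in this fit. When the counts of both were summed, leaving 9 pools, only Vwf of these 4 kept its call (adjusted p = 0.00813, against 0.0557 for Slc2a1, 0.0784 for Eng and 0.0966 for Mfsd2a), with 0.845% of all genes called. The log2 fold changes in that fit were 0.55, 0.30, 0.27 and 0.25.

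Vwf rose most. Its lowest EE sample was above its highest SH sample within each region, at 28.3 against 26.0 CPM in dorsal and 22.9 against 21.9 CPM in ventral DG. Such separation was found for 3.99% of all tested genes in dorsal and 2.45% in ventral DG. The log2 fold change was 0.55 ± 0.09 over both regions (SE, adjusted p = 0.000884), an increase of 46.0%, and it passed without any one of the 9 pools (adjusted p up to 0.00882). In dorsal DG alone it was 0.48 ± 0.12 (adjusted p = 0.0699) and in ventral DG alone 0.61 ± 0.13 (adjusted p = 0.0317). The ventral call was lost without SH replicates 1, 2 or 4 or EE replicates 3 or 4 (adjusted p from 0.0670 to 0.215). It was also lost when SH replicate 3, whose ventral sample had 23.1 CPM of Vwf, was kept (adjusted p = 0.0572). Depth was not limiting for this gene, with 389 to 1013 fragments per sample.

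Slc2a1, which codes for the glucose transporter Glut1, was at 63.7, 62.7, 58.2 and 58.5 CPM in dorsal SH and 75.2, 83.8, 77.1, 67.2 and 64.05 CPM in dorsal EE. In ventral DG it was at 60.99, 62.7, 54.6 and 60.3 CPM in SH and 78.2, 81.0, 82.8, 67.5 and 64.8 CPM in EE. The housing groups did not overlap in either region, and the log2 fold change was 0.30 ± 0.05 (SE, adjusted p = 0.00296), an increase of 23.1%. The left-out ventral sample of SH replicate 3 had 65.3 CPM, above the lowest ventral EE sample, so the ventral separation holds only without it. It passed whichever of the 9 pools was dropped.

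Mfsd2a, whose values are given above, was higher in EE by 0.25 ± 0.05 on the log2 scale (SE, adjusted p = 0.0108), with separate housing groups in dorsal but not in ventral DG. Without SH replicate 4 or 5 it no longer passed (adjusted p = 0.0635 and 0.0599). Eng, or endoglin, a co-receptor for BMP and TGF-beta ligands on endothelium, was at 11.6, 11.7, 12.0 and 12.2 CPM in dorsal SH and 14.1, 12.5, 13.2, 16.6 and 12.97 CPM in dorsal EE. In ventral DG it was at 11.2, 12.4, 10.98 and 10.96 CPM in SH and 13.3, 11.6, 15.5, 14.5 and 15.6 CPM in EE. The groups were separate in dorsal DG and overlapped in ventral DG, and the log2 fold change was 0.27 ± 0.06 (SE, adjusted p = 0.0201). It no longer passed without SH replicates 1, 4 or 5 or EE replicate 3 (adjusted p from 0.0567 to 0.0852), and without SH replicate 5 only 2 of the 4 calls remained, those of Vwf and Slc2a1. Eng overlaps the antisense gene Fpgs, and the counts used here are specific for the strand.

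**Figure D3:**
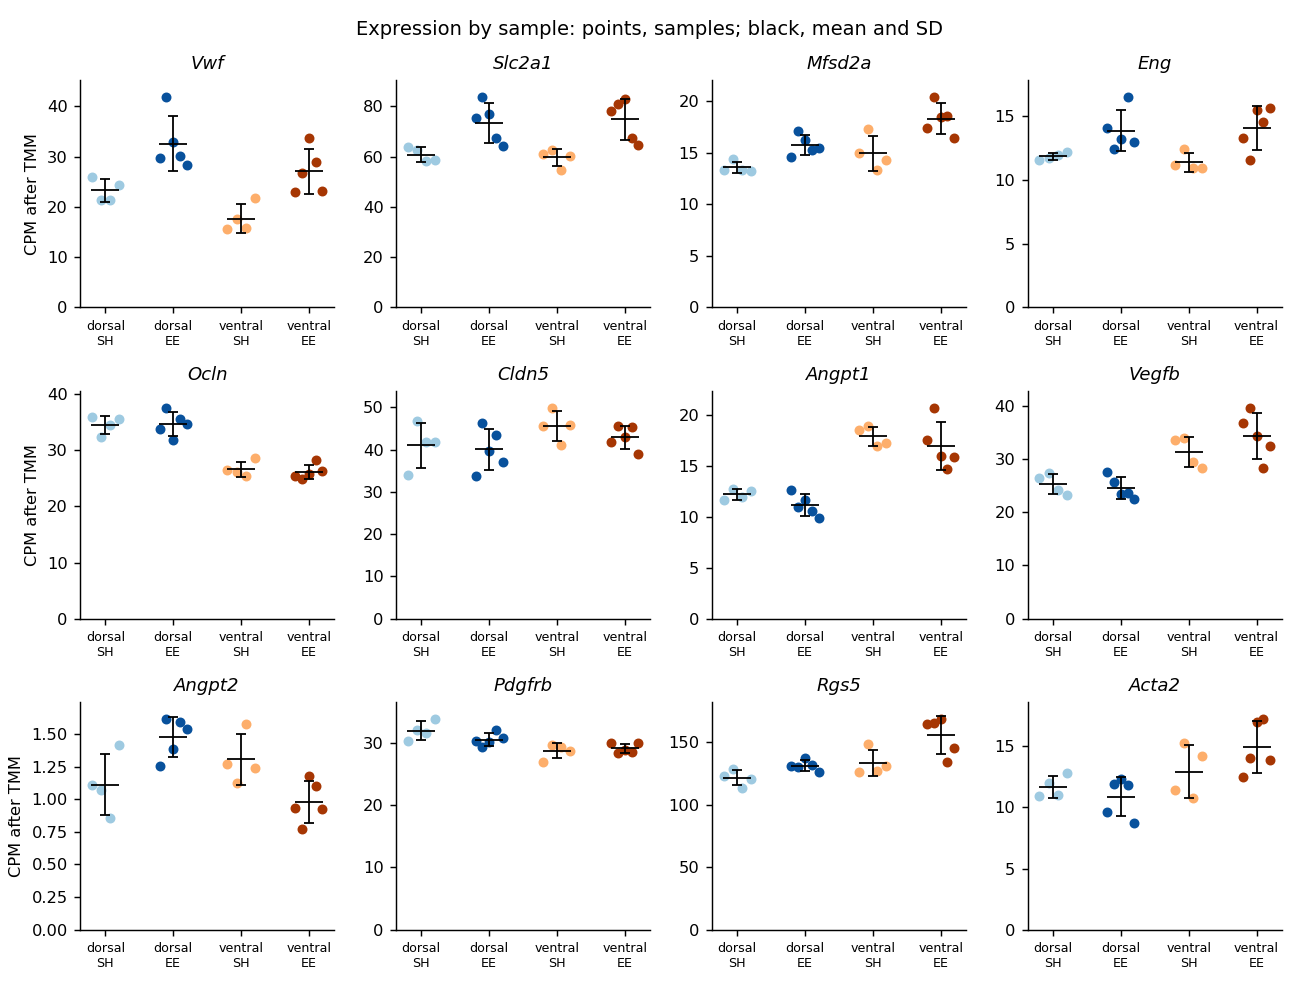
CPM after TMM normalisation of 12 genes in each of the 18 samples, with mean and SD in black and axes from 0. EE samples of Slc2a1 (64.1 to 83.8 CPM) lie above the SH samples shown (54.6 to 63.7 CPM, without SH replicate 3), and Ocln, Angpt1 and Vegfb separate by region.

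Several core endothelial genes had housing differences near 0. Cldn5 had a log2 fold change between EE and SH of -0.06 ± 0.06 over both regions, Ocln of -0.01 ± 0.04, Cdh5 of -0.07 ± 0.06 and Abcb1a of 0.03 ± 0.04, and none passed the test. Pecam1 (0.13 ± 0.05, adjusted p = 0.254), Kdr (0.13 ± 0.06, adjusted p = 0.420) and Flt1 (0.08 ± 0.04, adjusted p = 0.437) had positive values that did not pass. Ly6c1 lay at the limit (0.28 ± 0.07, adjusted p = 0.0501), and its reads may be shared with its near copy Ly6c2. In all, 18 of 22 endothelial genes had a positive value, with a median of 0.09 against -0.0013 over all tested genes. Positive values were not particular to them: 9 of 9 oligodendrocyte genes had one (median 0.098), against 2 of 10 granule neuron genes (median -0.09). The endothelial genes also varied together from sample to sample, so their signs are not independent, and the shift of the list was not tested.

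Among ligands, Vegfa had the largest positive value (0.19 ± 0.05, adjusted p = 0.0675), at 26.4, 27.8, 35.7 and 30.3 CPM in dorsal SH and 33.7, 35.6, 33.7, 34.9 and 35.6 CPM in dorsal EE. In ventral DG it was at 29.6, 30.5, 31.97 and 33.8 CPM in SH and 31.3, 38.3, 32.6, 36.5 and 37.6 CPM in EE, and the housing groups overlapped in both regions. Without SH replicate 4, whose dorsal sample was the highest of its group, Vegfa passed the test (adjusted p = 0.0170). Pdgfb had a log2 fold change of -0.0022 ± 0.04 and Pdgfrb of -0.02 ± 0.03. Of the mural genes Rgs5 came closest to the limit (0.17 ± 0.04, adjusted p = 0.0591) and passed without SH replicate 2 (adjusted p = 0.0206) or EE replicate 4 (0.0175). Acta2 (0.05 ± 0.08), Tagln (0.16 ± 0.09) and Myh11 (-0.04 ± 0.08) did not pass, and the median of the 7 mural genes was 0.05.

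**Figure D4:**
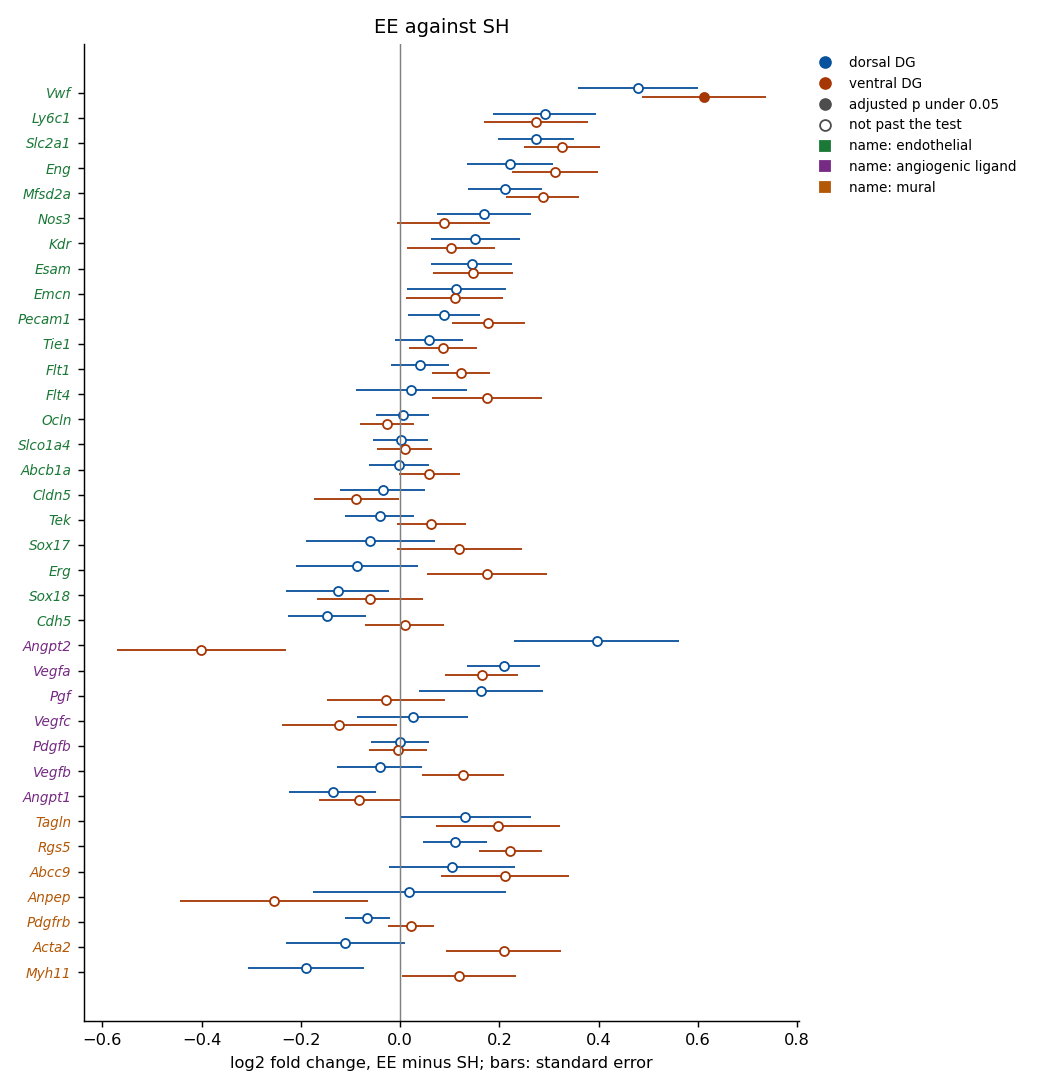
Log2 fold change between EE and SH (EE minus SH) of the 36 genes within dorsal and within ventral DG, with standard errors as bars; filled points passed adjusted p under 0.05 and names are coloured by role. Vwf in ventral DG (0.61) is the only filled point, and Angpt2 has values of opposite sign (0.40 and -0.40).

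Within a single region the housing test called none of the 36 genes in dorsal DG (0.716% of all tested genes called, 7 of the 36 with unadjusted p under 0.05) and Vwf alone in ventral DG (0.246% called). In dorsal DG, DESeq2 called 1 of the 36, Vwf (adjusted p = 0.0160), and 188 of all 17040 tested genes. With the replicate number shared by SH and EE samples as a block, 3 of the 36 were called in ventral DG (0.616% of all genes), namely Vwf (adjusted p = 0.0247), Slc2a1 (0.00251) and Mfsd2a (0.0226). In dorsal DG 2 were called with this block (1.43% of all genes), Slc2a1 (adjusted p = 0.00871) and Vegfa (0.0488), and Vwf was not (0.0594). The difference between the housing effects of the regions was tested as an interaction, and none of the 36 passed (0.00587% of all genes called, 1 of the 36 with unadjusted p under 0.05, none by DESeq2). The gene with the smallest p was Angpt2. It was at 1.11, 1.07, 0.854 and 1.42 CPM in dorsal SH and 1.25, 1.62, 1.38, 1.59 and 1.54 CPM in dorsal EE, and in ventral DG at 1.27, 1.13, 1.58 and 1.24 CPM (SH) and 0.932, 0.770, 1.18, 1.10 and 0.926 CPM (EE). The EE and SH ranges overlapped in both regions, and the difference of the log2 fold changes was 0.80 ± 0.24 (edgeR's quasi-likelihood test, unadjusted p = 0.00292, adjusted p = 1.00). The region difference of Angpt2 in EE did pass (0.58 ± 0.16, adjusted p = 0.00487). Angpt2 was counted at only 17 to 44 fragments per sample. In the left-out SH replicate 3 it was at 1.57 CPM dorsally and 0.941 CPM ventrally, the direction seen in EE.

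Endothelial and mural genes were also compared as sums. The 22 endothelial genes summed in dorsal DG to 506 ± 14.5 CPM (SD, n = 4) in SH and 541 ± 32.1 CPM (n = 5) in EE, and in ventral DG to 483 ± 32.5 CPM (n = 4) in SH and 532 ± 33.2 CPM (n = 5) in EE. The 7 mural genes summed to 193 ± 9.34, 199.9 ± 8.4, 202 ± 16.8 and 230.0 ± 15.7 CPM in the same order, and Rgs5 made up 65.7% of this sum. The ratio of endothelial to mural sum was 2.55 to 2.76 in dorsal SH and 2.59 to 2.94 in dorsal EE, against 2.28 to 2.55 in ventral SH and 2.23 to 2.47 in ventral EE. Each dorsal sample had a higher ratio than each ventral one, though the nearest values were almost equal (2.549 against 2.546). Without Rgs5 the ratio was 6.79 to 8.44 in dorsal and 6.68 to 7.66 in ventral samples, and the regions overlapped. The ratio was not tested, since the genes were not chosen independently of earlier results.

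**Figure D5:**
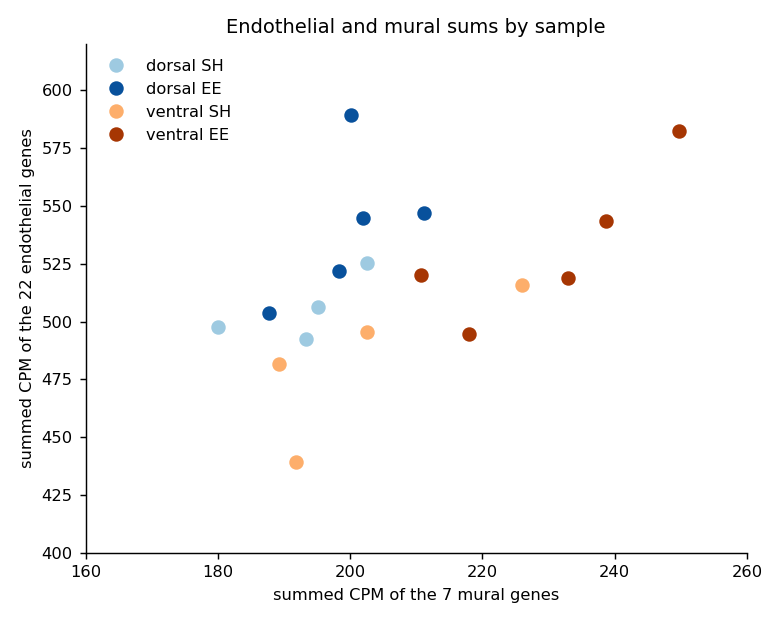
Summed CPM of the 22 endothelial genes against that of the 7 mural genes, one point per sample, with axes that do not start at 0. Ventral EE samples reach the highest mural sums (211 to 249.7 CPM), and dorsal samples have the higher ratio of endothelial to mural sum. The nearest ratios were almost equal (2.549 dorsal against 2.546 ventral), and without Rgs5 the ratios of the regions overlapped.

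Further genes listed for brain endothelium and mural cells were counted in fixed lists, and which cells of the whole tissue express them was not tested. These lists too were chosen with earlier results of these data known, so their shares were not tested against those of all genes. In the endothelial list Spock2 made up 39.15% of the summed CPM and Bsg 44.49% of the summed TPM, and both were among the genes lower in dorsal DG. Of 30 other brain endothelial genes, 4 were higher and 12 lower in dorsal DG (16 of 30 called, 53.3%, against 58.4% of all genes), with the smallest p values for the secreted protein Egfl7 (-0.49 ± 0.06), the adrenomedullin receptor partner Ramp2 (-0.35 ± 0.05) and the lactate transporter Slc16a1 (-0.27 ± 0.04). In EE 4 of these 30 were higher (13.3%, against 1.02% of all genes) and none lower. Among the 4 were Apold1 (0.57 ± 0.09, adjusted p = 0.000905), Ctla2a (0.50 ± 0.10, adjusted p = 0.00513) and the efflux pump Abcc4 (0.26 ± 0.05, adjusted p = 0.00903). The other called gene was Ly6a (0.32 ± 0.07, adjusted p = 0.0116). Over pool sums Apold1, Abcc4 and Ly6a passed (adjusted p = 0.00357, 0.0395 and 0.0467) and Ctla2a did not (0.0630). Of 20 other mural genes 2 were higher and 9 lower in dorsal DG (55% called, against 58.4% of all genes). With housing 1 of the 20 changed (5%, against 1.8% of all genes), the transporter gene Atp13a5, which was lower in EE (-0.20 ± 0.05, adjusted p = 0.0192, and 0.101 over pool sums).

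Of the 22 tested genes of VEGF, angiopoietin, PDGF and hypoxia signalling outside the 36, 7 were higher and 7 lower in dorsal DG (63.6% called, against 58.4% of all genes). The largest of these differences over both housings were those of Vegfd, a ligand of Flt4 (-2.26 ± 0.23), and the HIF prolyl hydroxylase Egln3 (1.27 ± 0.12). In SH alone Vegfd differed by -1.885, with means of 0.251 CPM dorsally and 0.919 CPM ventrally, levels that rest on few fragments. With housing 1 of the 22 changed (4.55%, against 1.8% of all genes), Apln, the ligand of the apelin receptor on endothelium, which was higher in EE (0.34 ± 0.06, adjusted p = 0.00221, and 0.0120 over pool sums).

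Markers of cells that lie beside or within vessels moved with housing as well, where 1.8% of all tested genes were called and 1.02% were higher. Of 5 red blood cell genes 4 were higher in EE (Hba-a1, Hba-a2, Hbb-bt and Alas2, with log2 fold changes of 0.31 to 0.53). The 5 summed to 101 to 148 CPM in dorsal SH, 121 to 186 CPM in dorsal EE, 136 to 151 CPM in ventral SH and 150.2 to 217 CPM in ventral EE. Hbb-bs made up 69.6% of this sum and was called by DESeq2 but not by edgeR. Over pool sums Hbb-bt passed (adjusted p = 0.0408), and Alas2 (0.0680), Hba-a1 (0.0908) and Hba-a2 (0.134) did not. Hba-a1 and Hba-a2 are near copies that can share reads. Of 12 genes of meningeal and perivascular fibroblasts 2 were lower in EE, Ogn (-0.63 ± 0.05) and Lum (-0.29 ± 0.06), of which Ogn passed over pool sums (adjusted p = 8.49e-05) and Lum did not (0.0881). Of 11 microglia and macrophage genes 1 was lower, P2ry12 (-0.18 ± 0.04), which did not pass over pool sums (adjusted p = 0.0572). edgeR called none of the 10 astrocyte, 9 oligodendrocyte, 12 choroid plexus or 10 granule neuron genes (3, 1, 0 and 3 with unadjusted p under 0.05, and 0, 0, 0 and 1 called by DESeq2). How far these cells enter the housing differences of the vascular genes was not tested.

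Within groups the vascular genes varied together from sample to sample. After the group means were removed from log2 CPM, the mean correlation over 231 pairs of endothelial genes was 0.34, and 204 pairs were positive. It was 0.28 over 154 pairs of an endothelial and a mural gene and 0.28 over 21 mural pairs, but 0.09 between endothelial genes and ligands and -0.0011 among ligands, against 0.00085 over all pairs of tested genes. The closest pair was Cldn5 with Esam, a junction protein (0.90), followed by the transporters Slco1a4 and Abcb1a (0.87). The endothelial genes least like the other 21 were Eng (mean correlation 0.03), Ocln (0.04) and Kdr (0.09). These correlations are over 18 samples whose points share libraries and, within a pool, mice.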

How the data were processed

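RNA-Seq reads were trimmed with Trim Galore 0.4.0, aligned to mm10 with STAR 2.5.1b and quantified with RSEM 1.2.30, per the submitters' processing notes. The authors deposited fragment counts per gene for each sample, unstranded and by strand, without normalisation, and the stranded counts were used. The authors also deposited the RSEM expected count, rounded here for an alternative fit, and TPM. Rows without a gene (32.6 to 40.9% of fragments) were left out. Small RNAs took 57.9 to 71.9% of TPM, so TPM served only to compare genes and CPM to compare samples. Gene names came from Gencode, and promoters and their coordinates from RefSeq (GRCm38.p6).

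The genes over 10 counts in 2 or more samples were fitted with edgeR 4.0.16 in R 4.3.3 (TMM, 4 group means in one model, quasi-likelihood test, Benjamini-Hochberg adjustment over all tested genes, threshold 0.05). The standard errors were derived from the F statistic. DESeq2 1.42.0 was an alternative, with other scaling, filters, count tables, all 20 samples, blocks, each group pair alone, and fits without each pool. A sum of dorsal and ventral counts per pool was added after seeing the data. The procedure was tested on simulated data. Replicate numbers were taken to mark pools, since the study took both regions from the same mice. The correlation of their deviations averaged 0.0827 over 9 pairs, ranged from -0.084 to 0.189 and was over 0.1 in 4 of them. Other pairs of samples from different groups averaged -0.0167 and reached 0.235, so these values alone do not establish the pools. Replicate libraries of a group were not duplicates.

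Described in detail were the 18 genes called in any contrast and 5 fixed ones, and from other lists at most 3 genes with the smallest p values. Where a list had a count of 5 or fewer, others were named after their values were seen. The members and lists were chosen with earlier results of these data known. The DNA methylation libraries were not used here.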

Additional observations from a re-analysis of the deposited data

Results flagged for a closer look

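Among 104 sets of 4 or 5 samples (23 genes and 3 summed measures in 4 groups), 3 had a sample far from the others by Dixon's ratio, where chance gives about 1 in 20. Abcb1a in ventral SH was 29.2 CPM in replicate 4, below 33.8 to 34.5 CPM in the other samples of the group. Eng in ventral SH was 12.4 CPM in replicate 2, above 11.0 to 11.2 CPM in the others. Mfsd2a in dorsal SH was 14.4 CPM in replicate 2, above 13.3 to 13.4 CPM in the others.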

How the results depend on the processing

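The 37 calls made for 18 genes kept their direction in all 651 alternative values computed for them. The number of the 36 genes called between regions (15) ranged from 11 to 16 without each pool and fell to 6 with a fold change of at least 1.2. Within SH (8) it ranged from 5 to 8 and was 5 with that fold, and within EE (9) it ranged from 6 to 10. For housing over both regions (4) it ranged from 2 to 6 without each pool, was 7 with DESeq2, with no filter on low counts and with the replicate block, and was 1 over pool sums. In dorsal DG (0) it ranged from 0 to 1, was 2 with no filter and with the replicate block, and was 1 with DESeq2 and with only the groups compared. In ventral DG (1) it ranged from 0 to 2, was 2 with DESeq2 and with no filter, 3 with the replicate block, and 0 with all 20 samples and with only the groups compared. For the interaction it was 0 in each fit without a pool. Calls over all genes shifted as well. For housing over both regions they were 306 in the main fit, 466 with DESeq2, 381 of 29898 with no filter and 544 with the replicate block. The causes of these shifts were not tested.

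For housing the replicate block used the shared replicate number of SH and EE samples, which the labels do not tie to a litter or day. Deviations of same-numbered samples correlated by 0.126 on average (over 0.1 in 4 of 4 ventral and 3 of 4 dorsal pairs, the lowest 0.0815), against -0.0305 in dorsal and -0.0324 in ventral DG for the 16 other pairs of SH and EE samples in each region. Of 8 samples in each region, 7 dorsal and 2 ventral ones correlated best with their own number. A limit of 0.1 in every pair was met in ventral DG and was not met in dorsal DG or over both regions together. Yet the highest of the other pairs was 0.233 in ventral DG, above the highest same-numbered pair there (0.163), and 0.0886 in dorsal DG. Whether the numbers pair the samples is therefore not decided by this limit. Over all genes this block moved the calls from 306 to 544 over both regions, from 122 to 243 in dorsal and from 42 to 105 in ventral DG. With the pool as block, the number called between regions went from 15 to 17, and over all genes from 9949 to 10566. Genes near 1 CPM, Angpt2 and Anpep, rest on few fragments, and no difference of their size can be read at this depth without error from counting.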

Other observations

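In the SH replicate 3 samples that were left out, Vwf was at 25.7 CPM (dorsal) and 23.1 CPM (ventral), Slc2a1 at 61.8 and 65.3 CPM, Mfsd2a at 13.5 and 17.01 CPM and Eng at 10.9 and 12.0 CPM. Ocln was at 36.2 and 28.8 CPM, Angpt1 at 13.7 and 20.9 CPM, and Angpt2 at 1.57 and 0.941 CPM in the same order. The dorsal value was above the ventral one for Ocln and below it for Angpt1, as in the other 9 pools. For Angpt2 it was above the ventral one, opposite to the log2 fold change of the SH pools that were used (-0.22).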
